A study of Homo sapiens with 4 samples.

Results

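Metallothioneins, with the zinc-sensing transcription factor gene MTF1 and the zinc exporter gene SLC30A1, were followed across 4 RNA-seq libraries of human hepatocellular carcinoma lines. The group was taken by gene symbol and held 10 genes of the 25343 listed: the metallothioneins MT1A, MT1E, MT1F, MT1G, MT1H, MT1M, MT1X and MT2A, then MTF1 and SLC30A1. The genes had been chosen by the difference between the Huh7 knockdown and control libraries, where the family stood higher, so those values are given as a description. All 10 symbols were present in every library.

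The 4 groups were Huh7 with SCD knockdown, Huh7 with the vector control, PLC/PRF/5 with SCD knockdown and PLC/PRF/5 with the vector control, with 1 library each. Both arms of both lines were transduced with lentivirus and kept under puromycin selection, and the knockdown arm carried the hairpin labelled shSCD1#13 against SCD1 (gene symbol SCD) in place of the non-target hairpin. SCD encodes stearoyl-CoA desaturase, which makes monounsaturated fatty acids, and the study compared expression with and without its knockdown. A single hairpin was used, so an effect of the hairpin on other transcripts and an effect of lowering SCD cannot be told apart.

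Metallothioneins are small cysteine-rich proteins that bind zinc, copper and cadmium, and hepatocytes are among their main producers. When free zinc rises, MTF1 binds metal response elements in DNA upstream of these genes and of SLC30A1, so that more zinc is bound inside the cell and more is pumped out. Glucocorticoids and interleukin-6 are also known to induce metallothioneins in hepatocytes. The human genes lie side by side in a cluster on chromosome 16.

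Levels are in TPM, a transcript abundance scaled by transcript length and to a fixed total per library, so genes can be compared within a library, and the depth behind them is unknown. SCD stood at 137 TPM in the Huh7 knockdown against 1755 TPM in the Huh7 control, and at 178 TPM in the PLC/PRF/5 knockdown against 1111 TPM in the PLC/PRF/5 control. It was thus lowered but still present, 12.8-fold lower in Huh7 and 6.25-fold lower in PLC/PRF/5, so the depth of knockdown differed between the lines. The 10 hepatocyte markers were above 0 in all libraries, though TTR was at only 0.16 and 0.41 TPM in the PLC/PRF/5 knockdown and control. ALB and AFP led in Huh7, at 10479 and 10302 TPM in its knockdown and 6498 and 15421 TPM in its control. The summed level of the 10 markers was 29713 and 32995 TPM in the Huh7 knockdown and control and 3688 and 5559 TPM in the PLC/PRF/5 knockdown and control, and 9 of the 10 were higher in Huh7 in the limma fit over all genes, APOB being lower, where 28.3% of the 13813 genes fitted were called higher and 31.5% lower. Of 5 fibroblast markers, LUM stood at 60.04 and COL1A2 at 9.63 TPM in the Huh7 knockdown, against 10.8 and 30.9 TPM in the Huh7 control. Their sum was 74.0 TPM (Huh7 knockdown) and 50.9 TPM (Huh7 control), and 1.68 TPM (PLC/PRF/5 knockdown) and 0.95 TPM (PLC/PRF/5 control), and their part in the metallothionein values was not tested. The leukocyte gene CD3E did not exceed 0.05 TPM and PTPRC did not exceed 0.99 TPM in any library, while CD14 was at 2.81 and 2.53 TPM in the Huh7 knockdown and control. The endothelial gene KDR was listed at 0 in all of them and PECAM1 lay between 1.44 and 3.35 TPM. The 4 endothelial markers summed to between 1.5 and 3.4 TPM and the 5 leukocyte markers to between 1012 and 2601 TPM. The lysozyme gene LYZ, on the leukocyte list but also made by epithelia, was at 1008 and 1773 TPM in the Huh7 knockdown and control and at 2600.3 and 1744 TPM in those of PLC/PRF/5.

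In Huh7, all 8 metallothioneins were expressed and all stood higher in the knockdown library, whereas in PLC/PRF/5 only MT2A and MT1X reached 1 TPM and neither differed by more than 1.09-fold between arms. The summed level of the 8 genes was 2414 TPM in the Huh7 knockdown against 1159 TPM in the Huh7 control, 2.08-fold higher. In PLC/PRF/5 the sum was 38.5 TPM in the knockdown against 39.25 TPM in the control, a ratio of 0.981. As a share of all transcripts the family made up 0.241% of the Huh7 knockdown library and 0.116% of the Huh7 control library, against 0.00385% and 0.00393% of the PLC/PRF/5 knockdown and control libraries. With 1 library per group, these differences within a line have no replicate check, and no p-value is given for them.

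**Figure D1:**
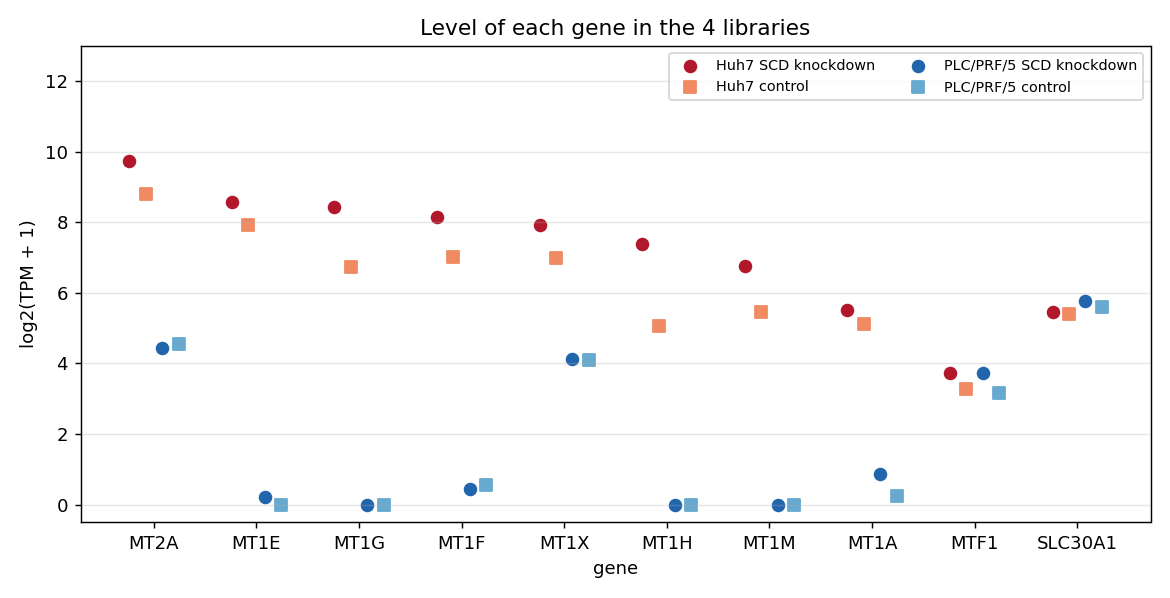
Level of each of the 10 genes, as log2(TPM + 1), in the 4 libraries, with 1 point per library. All 8 metallothioneins sit higher in both Huh7 libraries than in either PLC/PRF/5 library, while MTF1 and SLC30A1 lie close together in all 4.

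MT2A, in many cell types the most abundant metallothionein, led the family in every library. It stood at 846 TPM in the Huh7 knockdown against 448 TPM in the Huh7 control, and at 20.75 TPM in the PLC/PRF/5 knockdown against 22.6 TPM in the PLC/PRF/5 control. Ordered by level among all 25343 symbols, it took place 158 in the Huh7 knockdown and 320 in the Huh7 control, against 7193 and 6554 in the PLC/PRF/5 knockdown and control. It was 1.89-fold higher in the Huh7 knockdown and 1.09-fold lower in the PLC/PRF/5 knockdown. MT1X, an isoform with wide tissue expression, was at 239.8 and 126 TPM in the Huh7 knockdown and control and at 16.4 and 16 TPM in the PLC/PRF/5 knockdown and control. These are the isoforms with an appreciable level in both lines, and for both the Huh7 libraries lay above the PLC/PRF/5 libraries.

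The DNA just upstream of MT2A, MT1X and MT1H is shown because these genes contrast in the data: MT2A and MT1X were present in both lines, while MT1H had the largest fold change in Huh7 and was listed at 0 in both PLC/PRF/5 libraries. Each run gives the 250 bases before the RefSeq start site on the gene's strand (build GRCh38.p14), at chr16:56608334-56608583 for MT2A, chr16:56682220-56682469 for MT1X and chr16:56669564-56669813 for MT1H, all on the plus strand. Capitals mark matches to the metal response element core, searched as TGCACNC or TGCGCNC on either strand.
MT2A: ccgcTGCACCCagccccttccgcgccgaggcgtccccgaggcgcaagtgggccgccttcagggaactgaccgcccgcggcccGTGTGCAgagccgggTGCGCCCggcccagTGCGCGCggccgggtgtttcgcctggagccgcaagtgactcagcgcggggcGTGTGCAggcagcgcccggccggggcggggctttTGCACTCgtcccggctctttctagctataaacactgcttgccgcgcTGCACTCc
MT1X: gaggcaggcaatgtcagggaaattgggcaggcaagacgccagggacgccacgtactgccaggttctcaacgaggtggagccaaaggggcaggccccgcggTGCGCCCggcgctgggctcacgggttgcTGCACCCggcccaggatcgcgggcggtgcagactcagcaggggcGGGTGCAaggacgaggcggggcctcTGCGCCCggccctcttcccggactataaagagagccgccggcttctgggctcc
MT1H: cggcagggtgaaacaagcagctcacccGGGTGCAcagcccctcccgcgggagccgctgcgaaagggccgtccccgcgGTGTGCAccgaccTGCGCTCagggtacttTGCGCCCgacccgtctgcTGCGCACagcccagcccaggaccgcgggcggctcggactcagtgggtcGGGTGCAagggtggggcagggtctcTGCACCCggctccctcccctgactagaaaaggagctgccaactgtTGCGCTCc
The MT2A window held 7 matches, the MT1H window 8 and the MT1X window 4, with no overlap between matches. Among the 35116 RefSeq promoter windows of the same length, 24.8% held at least 1 match, 0.37% held at least 4, 0.0313% at least 7 and 0.0171% at least 8. All 3 windows had a match on the gene's strand that began 53 or 54 bases before the start site. MT1X and MT1H also shared one on the other strand that began 78 bases before it. Of the 10 genes, 5 matched a RefSeq promoter entry, the other two being SLC30A1, with 1 match in its window, and MTF1, with 0. A match is a stretch of letters and not evidence of binding.

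**Figure D2:**
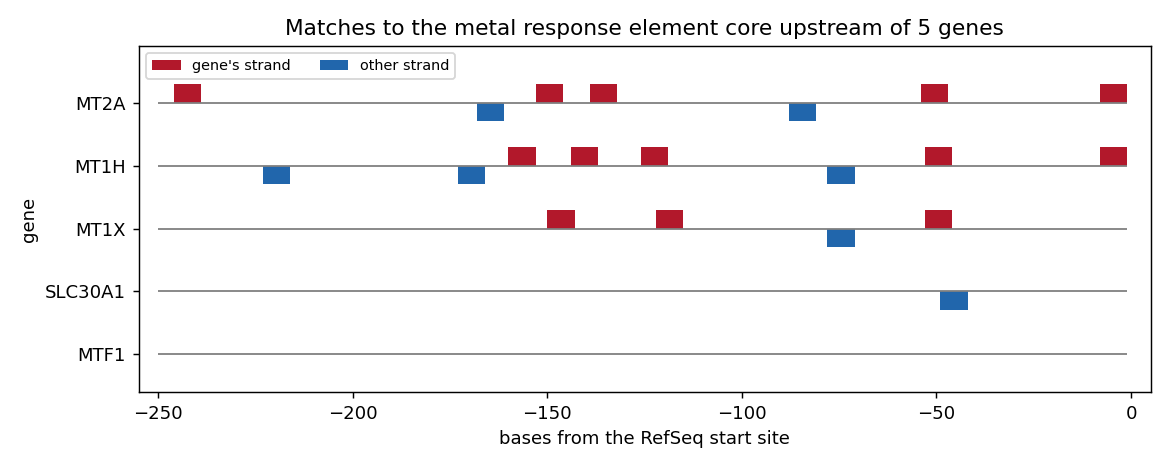
Position of each match to the metal response element core in the 250 bases upstream of 5 genes, in bases from the RefSeq start site, with bars above the line for the gene's strand and below it for the other strand. MT2A has 7 matches, MT1H 8, MT1X 4, SLC30A1 1 and MTF1 0.

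The size of the Huh7 difference varied widely among the metallothioneins. MT1H had the largest fold change and was at 166 TPM in the knockdown against 32.6 TPM in the control, 5.10-fold higher (log2 fold change 2.32 on the log2(TPM + 1) scale). MT1G was at 343 TPM in the knockdown against 105 TPM in the control, 3.26-fold higher (log2 fold change 1.70). Reads of this pair are partly ambiguous: of the 31-base words in its longest GENCODE 29 transcript, MT1G shared 12.5% with MT1H, and MT1H 15.7% with MT1G. MT1M followed at 107 TPM in the knockdown against 42.65 TPM in the control, with a log2 fold change of 1.31. MT1F was at 286 TPM in the knockdown against 129 TPM in the control, with a log2 fold change of 1.14. These 4 isoforms were past 2-fold on the log2(TPM + 1) scale.

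The other metallothioneins stood less far apart. MT1X and MT2A each had a log2 fold change of 0.92, just short of 2-fold. MT1E, the most abundant MT1 isoform in Huh7, was at 383 TPM in the knockdown against 242 TPM in the control, with a log2 fold change of 0.66. MT1A was the nearest to its control, at 44.3 TPM in the knockdown against 33.7 TPM in the control, with a log2 fold change of 0.39. The median log2 fold change of the 8 was 1.03 in Huh7, and that of all 13485 genes considered there (at least 1 TPM in at least 1 library of the pair) was 0.08. Of the 10 genes, 4 stood 2-fold or more above the control and 0 stood that far below it, where 3.1% and 1.54% of all considered were, and nothing is read from this count because the same values chose the genes.

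**Figure D3:**
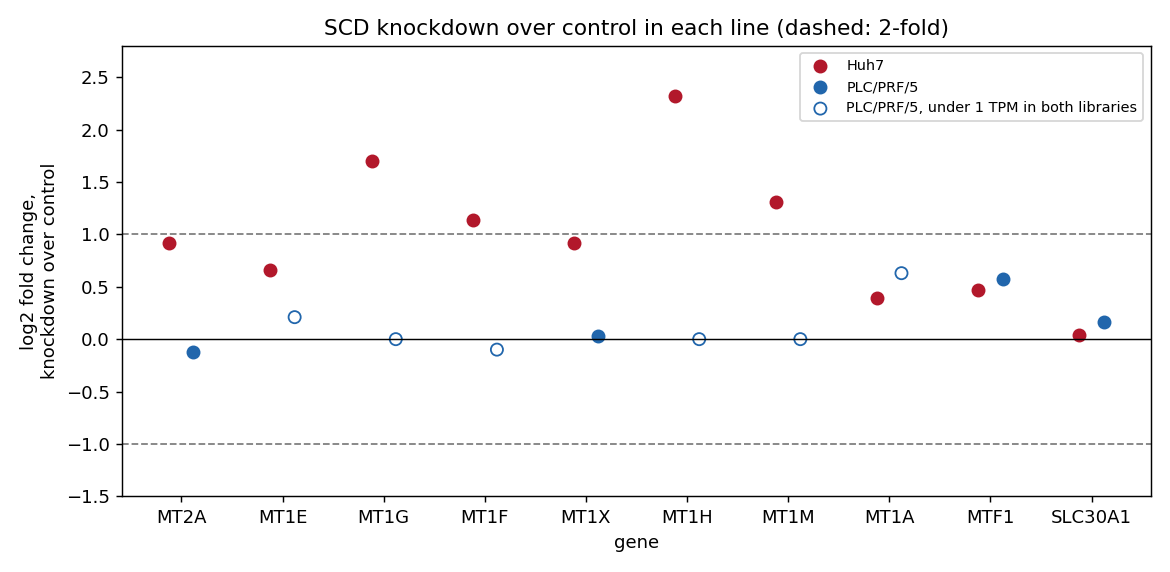
Log2 fold change of knockdown over control for each gene in Huh7 and in PLC/PRF/5, with 1 library per arm, so that no error can be drawn. Open points are genes under 1 TPM in both PLC/PRF/5 libraries, and in Huh7 MT1H, MT1G, MT1M and MT1F lie above the dashed line at 2-fold.

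The make-up of the family therefore differed between the arms of Huh7. MT1G made up 14.2% of the summed metallothionein level in the knockdown against 9.06% in the control, and MT1H 6.88% against 2.81%. MT1E made up 15.9% in the knockdown against 20.9% in the control, and MT2A 35% against 38.6%. By level, MT1G was the third isoform in the knockdown and the fifth in the control, and MT1H the sixth in the knockdown and the eighth in the control. MT2A and MT1E led in both. In PLC/PRF/5 the sum was almost all MT2A and MT1X: MT2A made up 53.9% in the knockdown and 57.6% in the control, and MT1X 42.6% and 40.8%.

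**Figure D4:**
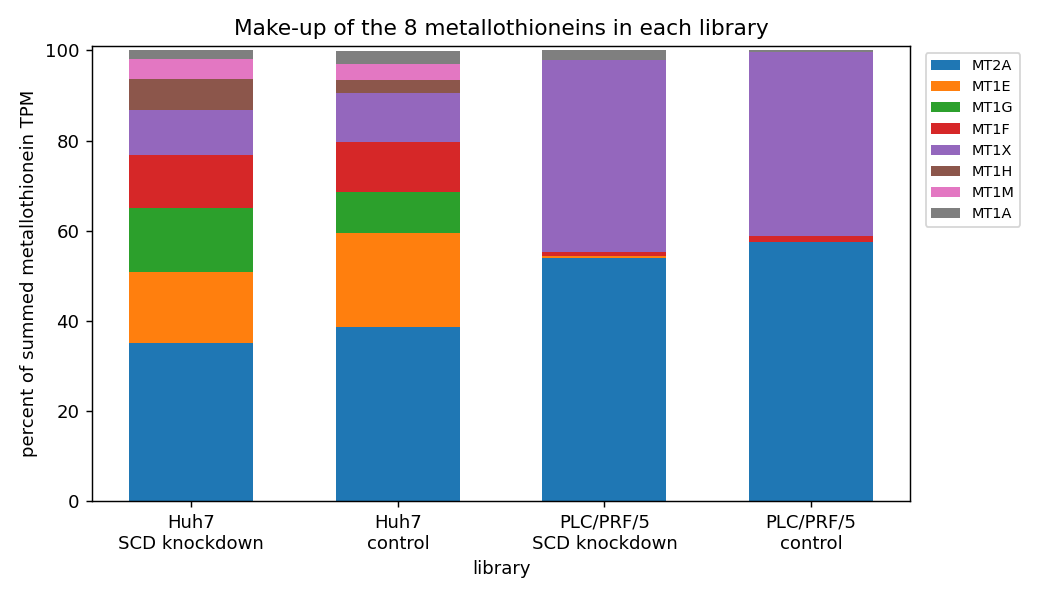
Share of each of the 8 metallothioneins in their summed TPM, in percent, with 1 bar per library. MT1G and MT1H take a larger share in the Huh7 knockdown than in the Huh7 control, and MT2A and MT1X fill nearly all of both PLC/PRF/5 bars.

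In PLC/PRF/5, MT1G, MT1H and MT1M were listed at 0 in both libraries. MT1E was at 0.16 TPM in the knockdown and listed at 0 in the control. MT1F was at 0.37 TPM in the knockdown against 0.47 TPM in the control. MT1A was at 0.83 TPM in the knockdown against 0.18 TPM in the control, both under 1 TPM and of unknown depth. The 4 genes that passed the 1 TPM filter there were MT2A, MT1X, MTF1 and SLC30A1, and 0 of these 4 were 2-fold higher or lower, where 1.72% of the 13057 considered stood that far above the control and 1.11% that far below it. MT1X had a log2 fold change of 0.03 and MT2A of -0.12, beside a median of 0.10 over all genes considered in that line. Rescaling the libraries by their median ratio turned the sign for MT1X, to -0.07.

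The difference between the lines was larger than that between the arms. In the knockdown libraries, MT2A was 40.8-fold and MT1X 14.6-fold higher in Huh7 than in PLC/PRF/5, and in the control libraries 19.8-fold and 7.90-fold. MT1F was 772-fold higher in Huh7 in the knockdowns and 274-fold higher in the controls, and MT1A 53.4-fold and 187-fold, from levels under 1 TPM in PLC/PRF/5. No fold is given where PLC/PRF/5 was listed at 0. In the controls, 8 of the 10 genes were at least 2-fold higher in Huh7, where 15.8% of all considered were, and 0 of 10 were lower, where 14.9% were. In the knockdowns the counts were again 8 and 0, where the shares of all considered were 15.6% higher and 15.1% lower. The 8 were the metallothioneins in both. Nothing is read from these counts, because they rest on the Huh7 libraries that chose the genes. Of the 8, 6 were under 1 TPM in both PLC/PRF/5 libraries and passed the filter only through Huh7.

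In the limma fit over all 4 libraries with the arm as a block, MT2A was higher in Huh7 by 4.77 on the log2(TPM + 1) scale, with a standard error of 0.25, and MT1X by 3.35, with a standard error of 0.23. With 1 library per group, the residual of this fit measures how alike the line difference was in both arms. It does not measure the spread of replicate cultures, so the standard errors are no replicate check. The standard errors also draw on a spread pooled over all genes of the fit. No p-value is given for the metallothioneins, because the fit contains both Huh7 libraries on which they were chosen. In addition, 6 of the 8 were under 1 TPM in both PLC/PRF/5 libraries and entered the fit only through Huh7. For MT1A the difference lay between 2.99 and 6.25, and for MT1F between 5.19 and 8.54, over the alternative fits.

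MTF1, the transcription factor that reads zinc, and SLC30A1, the plasma membrane exporter it is known to induce, were at closer levels in the lines. MTF1 was at 12.3 TPM in the knockdown of each line, against controls of 8.62 TPM (Huh7) and 7.95 TPM (PLC/PRF/5). It stood 1.43-fold higher in the Huh7 knockdown and 1.54-fold higher in the PLC/PRF/5 knockdown, with log2 fold changes of 0.47 and 0.57. SLC30A1 was at 42.7 TPM in the Huh7 knockdown against 41.5 TPM in the Huh7 control, and at 53.1 TPM in the PLC/PRF/5 knockdown against 47.4 TPM in the PLC/PRF/5 control. Its log2 fold changes were 0.04 and 0.16, and rescaling by the median ratio turned the Huh7 value to -0.04. Between the lines, MTF1 differed by 0.05 with a standard error of 0.16 (limma adjusted p = 0.781), Huh7 minus PLC/PRF/5. SLC30A1 differed by -0.25 with a standard error of 0.11 (limma adjusted p = 0.102), and neither gene passed. These standard errors and p-values rest in part on how alike the line difference was in both arms, and not on replicate cultures. They rest more on a spread pooled over all genes of the fit, with 3.71 prior against 1 residual degree of freedom. That neither passed is therefore no evidence that the lines are equal.

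Other metallothionein symbols were at low levels, and most of those above 0 were higher in Huh7. The transcribed pseudogene MT1L was at 22.1 TPM in the Huh7 knockdown against 9.45 TPM in the Huh7 control and was listed at 0 in both PLC/PRF/5 libraries. MT1B and MT1IP were at 0.64 and 0.44 TPM in the Huh7 knockdown and listed at 0 in the other 3 libraries. MT1HL1, a symbol outside the cluster, was at 1.07 TPM in the Huh7 knockdown and listed at 0 in the other 3. MT1JP was at 0.79 TPM in the Huh7 knockdown against 0.59 TPM in the Huh7 control, and listed at 0 in both PLC/PRF/5 libraries. MT1DP was at 1.82 and 0.9 TPM in the Huh7 knockdown and control, and at 0.69 and 0.19 TPM in those of PLC/PRF/5. MT3, known mainly from brain, was at 0.11 TPM or listed at 0, and MT4, known from stratified epithelium, was listed at 0 throughout. MTL5, the testis gene tesmin, differs from this family and stood higher in PLC/PRF/5, at 5.71 and 5.15 TPM in its knockdown and control against 1.5 and 1.38 TPM in those of Huh7.

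The protein-coding neighbours of the cluster, taken by position, 3 on each side, in the RefSeq gene order, had levels as follows. On one side, BBS2 was at 19.6 and 20.4 TPM in the Huh7 knockdown and control and at 12.6 and 14.0 TPM in those of PLC/PRF/5. OGFOD1, beyond it, was at 51.4 and 55.2 TPM in the Huh7 knockdown and control and at 64.5 and 59.9 TPM in those of PLC/PRF/5. NUDT21 was higher in Huh7, at 111 and 116 TPM in its knockdown and control against 62.2 and 61.1 TPM in those of PLC/PRF/5. On the other side, the nucleoporin gene NUP93, next to MT1X, was at 67.2 and 72.7 TPM in the Huh7 knockdown and control and at 59.1 and 66.3 TPM in those of PLC/PRF/5. HERPUD1, an ER stress gene that lies further out, stood higher in the knockdown of both lines (log2 fold change 0.69 for Huh7 and 1.92 for PLC/PRF/5), at 89.5 TPM in the Huh7 knockdown against 54.9 TPM in the Huh7 control, and at 303 TPM in the PLC/PRF/5 knockdown against 79.2 TPM in the PLC/PRF/5 control. SLC12A3, between them, was at 0.03 TPM in the Huh7 knockdown and listed at 0 in the Huh7 control, and was at 1.37 TPM in the PLC/PRF/5 knockdown against 7.47 TPM in the PLC/PRF/5 control.

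**Figure D5:**
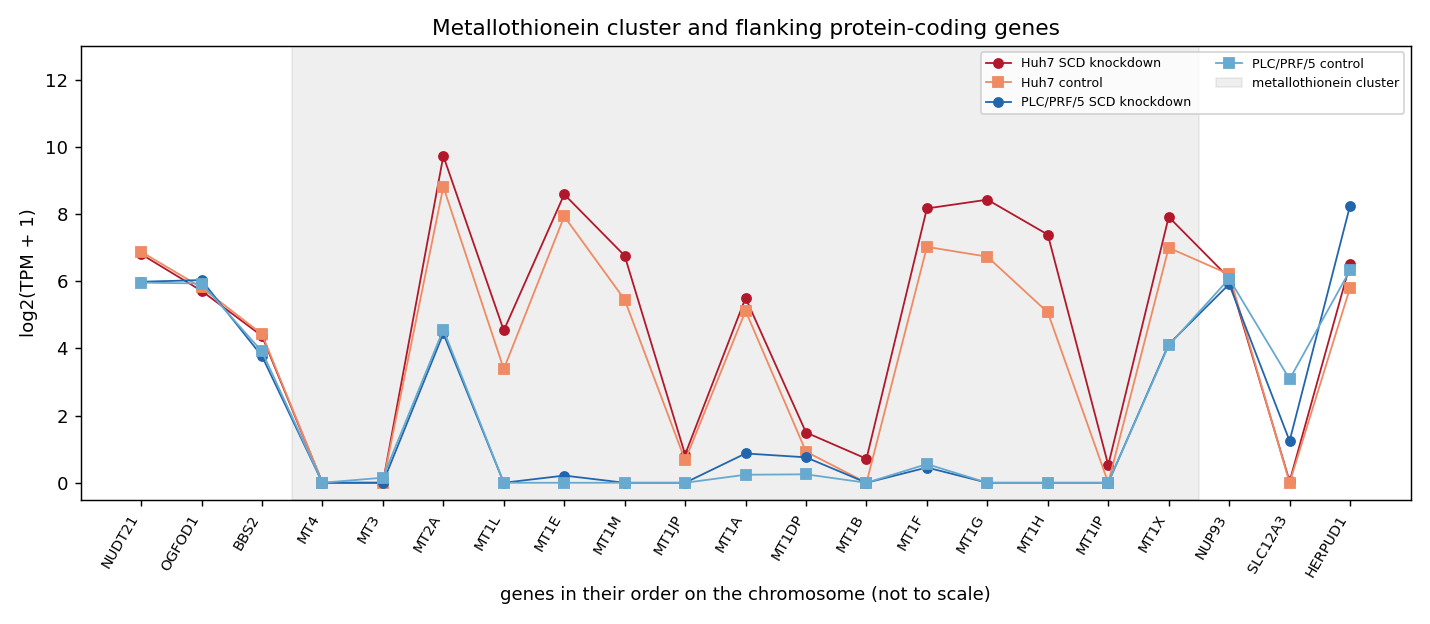
Level, as log2(TPM + 1), of the metallothionein cluster genes and of 3 protein-coding genes on each side, in their order along chromosome 16 and not to scale, with 1 line per library joining neighbours. The Huh7 curves run high over most of the shaded cluster but also fall low at MT4, MT3, MT1JP, MT1DP, MT1B and MT1IP. The PLC/PRF/5 curves lie near 0 over the shaded cluster except at MT2A and MT1X, and all 4 come together at BBS2 and NUP93.

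Zinc transporters other than SLC30A1 were counted by the same rule of size. Of all considered, 3.1% were 2-fold higher and 1.54% lower in Huh7, and 1.72% and 1.11% in PLC/PRF/5. A count of 0 in so short a list is near those shares and is not read as a result. Of the 9 other exporters of the SLC30 family, 0 of the 5 considered in Huh7 and 0 of the 6 considered in PLC/PRF/5 were 2-fold apart, with a median log2 fold change of 0.19 in each line. The nearest to 2-fold in Huh7 was SLC30A10, which exports manganese, at 43.7 TPM in the knockdown against 24.5 TPM in the control (log2 fold change 0.81), and at 0.3 TPM in both PLC/PRF/5 libraries. SLC30A7, a Golgi transporter, stood 0.28 higher on the log2 scale in the Huh7 knockdown and 0.51 higher in that of PLC/PRF/5. SLC30A4 stood 0.06 and 0.40 higher, but in Huh7 it was under 1 TPM, at 0.42 and 0.36 TPM in the knockdown and control.

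Of the 14 importers of the SLC39 family, 0 of the 11 considered in Huh7 were 2-fold higher and 1 was 2-fold lower. Of all considered there, 3.1% were higher and 1.54% lower. In PLC/PRF/5 0 of 12 importers were 2-fold apart, where 1.72% of all considered were higher and 1.11% lower. The importer lower in Huh7 was SLC39A10, at 8.76 TPM in the knockdown against 20.8 TPM in the control. It was at 22.5 TPM in the PLC/PRF/5 knockdown against 32.8 TPM in the PLC/PRF/5 control. SLC39A5 was at 35.1 and 27.3 TPM in the Huh7 knockdown and control, and at 0.59 TPM in the PLC/PRF/5 knockdown against 1.7 TPM in the PLC/PRF/5 control. SLC39A8, which also carries manganese and cadmium, stood 0.65 higher on the log2 scale in the Huh7 knockdown and 0.40 higher in that of PLC/PRF/5. SLC39A14, the importer with the highest level in all 4 libraries, was at 386 TPM in both Huh7 arms and at 368 and 348 TPM in the PLC/PRF/5 knockdown and control. The median log2 fold change of the importers was 0.02 in each line. Among importers the lines differed most in SLC39A4, lower in Huh7 by 5.33 on the log2 scale, and in SLC39A5, higher in Huh7 by 3.95. SLC39A4 was at 0.43 and 0.68 TPM in the Huh7 knockdown and control, against 63.84 and 58.71 TPM in those of PLC/PRF/5. It entered the fit only through PLC/PRF/5. No p-value is given for either gene, because both were picked as the largest differences in the same fit. Of 12 importers in the fit, 1 was called higher and 6 lower in Huh7, where 28.3% and 31.5% of the 13813 genes of the fit were.

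Copper handling genes showed 0 of 10 at least 2-fold apart in either line. Of all considered, 3.1% were higher and 1.54% lower in Huh7, and 1.72% and 1.11% in PLC/PRF/5, so nothing is read from that 0. Their median log2 fold change was -0.03 for Huh7 and 0.00 for PLC/PRF/5. The copper-binding plasma ferroxidase gene CP was at 79.4 TPM in the Huh7 knockdown against 64.3 TPM in the Huh7 control, and at 228 TPM in the PLC/PRF/5 knockdown against 433 TPM in the PLC/PRF/5 control. The copper chaperone gene COX17 stood at 0.33 and 0.01 on that scale, and ATOX1 at -0.07 and -0.33. Heavy metal and electrophile response genes had a median of 0.35 for Huh7 and 0.46 for PLC/PRF/5, beside 0.08 and 0.10 over all genes considered. Of the 12, 10 stood higher in the Huh7 knockdown and 9 in that of PLC/PRF/5, where 60.2% and 63.4% of all considered did. By at least 2-fold, 1 of the 12 was higher and 1 lower in Huh7, and 2 were higher in PLC/PRF/5, beside the shares of all genes given above. HMOX1, heme oxygenase 1, which metals induce, was at 44.4 TPM in the Huh7 knockdown against 27.7 TPM in the Huh7 control, and at 373 TPM in the PLC/PRF/5 knockdown against 153 TPM in the PLC/PRF/5 control. OSGIN1 had a log2 fold change of 1.12 in Huh7 against 1.04 in PLC/PRF/5, and SLC7A11, a cystine transporter gene, of -1.12 against -0.27.

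Genes of the other known inducers of metallothioneins were counted in the same way. Of 12 glucocorticoid receptor targets, the receptor gene NR3C1 included, 3 were at least 2-fold higher and 1 lower in Huh7 (median log2 fold change -0.18), where 3.1% and 1.54% of all considered were, and 0 of 11 were 2-fold apart in PLC/PRF/5 (median -0.05). Those furthest apart in Huh7 were SDPR, at 23.8 TPM in the knockdown against 4.81 TPM in the control, the phosphatase gene DUSP1, at 142 TPM against 41.25 TPM, and the gluconeogenic enzyme gene PCK1, at 2.33 TPM against 0.13 TPM. The 1 at least 2-fold lower was SGK1, at 26.8 TPM in the Huh7 knockdown against 62.6 TPM in the Huh7 control. By direction alone, 4 of the 12 stood higher in the Huh7 knockdown and 8 lower, where 60.2% of all considered stood higher. Of the interleukin-6 and STAT3 response genes, 1 of 13 considered was at least 2-fold higher in Huh7 (SAA1, at 2.72 TPM against 0.72 TPM), and 1 of 9 was at least 2-fold lower in PLC/PRF/5 (the fibrinogen gene FGB, at 149 TPM against 459 TPM). SAA2, the other acute-phase serum amyloid gene, was at 2.19 TPM in the Huh7 knockdown against 0.77 TPM in the Huh7 control. By direction alone, 8 of the 13 stood higher in the Huh7 knockdown and 5 lower. Among the lower ones was HP, at 18.6 TPM in the Huh7 knockdown against 31.9 TPM in the Huh7 control. The median log2 fold change of that list was 0.25 for Huh7 and -0.03 for PLC/PRF/5, beside 0.08 and 0.10 over all genes considered. In PLC/PRF/5, 1.72% of all considered were at least 2-fold higher and 1.11% lower.

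The genes whose pattern over the 4 libraries lay nearest to that of the metallothioneins were EPCAM, TMEM176A, CFI, SULT1C4 and TMEM176B. Likeness was the Euclidean distance between centred log2(TPM + 1) profiles and the median profile of the 8 metallothioneins, over 10446 genes with at least 10 TPM in at least 1 library. The distances of the 5 ranged between 0.23 and 0.63, where the median gene lay at 6.36. EPCAM, an epithelial adhesion gene, was at 131 TPM in the Huh7 knockdown against 50.1 TPM in the Huh7 control. In PLC/PRF/5 it was listed at 0 in the knockdown and was at 0.11 TPM in the control. The complement factor I gene CFI was at 148 and 45.9 TPM in the Huh7 knockdown and control, and at 0.33 and 0.91 TPM in those of PLC/PRF/5. A profile of 4 libraries is mostly the difference between the lines and the difference between the arms of Huh7, so likeness over so few points is a description.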

How the data were processed

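RNA isolated with TRIzol was sequenced by Illumina protocols, per the labels' protocols, in 4 libraries of 1 per group. The authors deposited 1 table per library with TPM by gene symbol, rounded to 2 decimals. Named in the submitters' processing notes are cutadapt, RSEM 1.2.21 and the hg19 build. For the aligner, annotation and strand use, nothing is given in the sources used here. RSEM divides ambiguous reads between genes by likelihood, so levels of closely related metallothioneins are uncertain. Of the 31-base words in each one's longest GENCODE 29 transcript, 2.27% to 25.6% occur in another metallothionein. Those transcripts ran from 396 bases (MT1A) to 1727 bases (MT1X), and a longer one can dilute the share. For MT1X, 4.01% of words occurred in another metallothionein and 17.9% in any other gene. TPM keeps no depth, so no counting interval was computed, and a gene at 0 is said to be listed at 0.

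Fold changes were taken as log2((TPM + 1)/(TPM + 1)), knockdown over control, for which 2-fold is a rule of size and not a test. The line difference was fitted in R 4.3.3 by limma 3.58.1, on log2(TPM + 1) over 13813 genes with at least 1 TPM in at least 2 libraries, with the arm as a block, a variance trend, 1 residual and 3.71 prior degrees of freedom, two-sided, with Benjamini-Hochberg adjustment at 0.05. The fit was also run on simulated data with normal noise of a single spread and no knockdown effect that differed by line. That run checks the code, not how the fit behaves on these data. The residual of the fit measures how alike the line difference was in both arms, not the spread of replicate cultures. No test of knockdown by line was possible. Promoters and gene order came from RefSeq (GRCh38.p14), another build than the authors', and were used for sequence and order only. Python 3.11.15 made the plots. Nothing states that libraries came from separate experiments.

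The genes and lists were chosen with earlier results of these data known. The line test was planned for all members, but its p-values are not given for the metallothioneins, which were chosen for their rise in the Huh7 libraries that the fit contains. Named genes were all members and all other metallothioneins. The 3 genes furthest from 0 in each other list and the 5 genes nearest in pattern were named too. Cluster neighbours, marker genes, genes named for the line difference and genes that went the other way within a list were added. Tried instead were a pseudocount of 0.1 or 5, a filter at 5 TPM or no filter, median-ratio rescaling, no variance trend and no arm term.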

Additional observations from a re-analysis of the deposited data

Results flagged for a closer look

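Several genes stood higher in the knockdown library of one line and lower in that of the other. With 1 library per group the difference was not tested. MT2A had a log2 fold change of 0.92 in Huh7 against -0.12 in PLC/PRF/5, a difference of 1.03. The zinc importer gene SLC39A5 had 0.35 and -0.76, a difference of 1.11, from 0.59 and 1.7 TPM in the PLC/PRF/5 knockdown and control. The copper-binding gene CP had 0.30 and -0.92, a difference of 1.22. PCK1 had 1.56 and -0.10, a difference of 1.66, from 2.33 and 0.13 TPM in the Huh7 knockdown and control. FGB had 0.25 and -1.62, a difference of 1.87.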

How the results depend on the processing

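No paired analysis was possible because the labels give no replicate numbers that pair cultures, and the arm served as the block of the line fit. The 4 metallothioneins past 2-fold in Huh7 stayed at 4 in number, under each alternative pseudocount, filter and scaling. Nothing is read from this, because the same Huh7 values chose the genes. All 4 were at 32.56 TPM or more in both Huh7 libraries, so a filter at 5 TPM could not drop them. In PLC/PRF/5 the number past 2-fold stayed at 0 among members with at least 1 TPM, which MT1A and MT1E do not reach there. The counts over all genes depended on the pseudocount. In Huh7, 695 genes were at least 2-fold higher and 370 lower with 0.1, 155 and 92 with 5, and 418 and 207 with 1. For PLC/PRF/5 these numbers were 480 and 248 with 0.1, 68 and 55 with 5, and 225 and 145 with 1. Without a filter they did not move, because a gene under 1 TPM cannot pass 2-fold with a pseudocount of 1. Median-ratio scaling shifted the median log2 fold change to 0 from 0.08 in Huh7 and from 0.10 in PLC/PRF/5, and the higher share of 2-fold genes was then 45.5% in PLC/PRF/5, against 60.8% as deposited. Outside that filter, MT1A in PLC/PRF/5 had a log2 fold change of 1.73 and MT1E of 1.38 with 0.1. Over the 7 alternative fits, which contain the Huh7 libraries that chose the genes, the line difference was 4.54 to 4.84 for MT2A and 3.08 to 3.43 for MT1X. Depth is unknown, so levels listed at 0 cannot be bounded.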
